A study of Homo sapiens with 6 samples.

Results

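Krüppel-like factors (KLFs) are zinc finger transcription factors that bind GC-rich and CACCC sequences in promoters and enhancers. They fall into families by the cofactors they recruit: KLF2, KLF4, KLF5, KLF6 and KLF7 mostly activate transcription, KLF3 represses through CtBP, and KLF10 and KLF13 repress through SIN3A. In stratified and glandular epithelia KLF5 is known for proliferating basal cells and KLF4 for differentiating cells, and YAP is known to protect the KLF5 protein from degradation. The 8 genes described here, KLF2, KLF3, KLF4, KLF5, KLF6, KLF7, KLF10 and KLF13, were chosen by name as epithelial KLFs, out of 23459 genes in the count table. All 8 were in the table, and 7 had enough reads to be tested.

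The libraries come from cells labelled WT of MCF10A, a human breast epithelial cell line that is not transformed, grown with serum, insulin, hydrocortisone, cholera toxin and EGF. Cells received 20 nM of siRNA with a lipid reagent, either a non-targeting control (siCtrl, 3 libraries) or siRNAs that target YAP together with TAZ (siYAP/TAZ, 3 libraries). The comparison asks which KLF transcripts depend on YAP and TAZ, the coactivators that the Hippo pathway restrains. All libraries are of 1 cell line, the time after transfection and the siRNA sequences were not given in the sources used here, and RNA levels say nothing of KLF protein. The study's methods call its RNA-Seq replicates biological, in a section on poly(A)-selected libraries that does not describe these QuantSeq libraries. The labels do not say how the replicates were separated, so the p-values measure the spread between these libraries.

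Labels and depth bear on every value below. In 2 of the 6 libraries, siCtrl replicate 2 and siYAP/TAZ replicate 2, title and description contradict each other on the siRNA, and the genotype field sides with the title. Replicate numbers also differ between title and description in other libraries. The description, by which the table's columns are also named, was used, and YAP1 fell from 201 ± 11.1 to 115 ± 3.25 CPM (counts per 1000000 counts of the TMM-scaled library, mean ± SD, n = 3) under it, with no overlap between groups. WWTR1, which encodes TAZ, fell from 106 ± 4.02 to 65.8 ± 5.44 CPM, again with no overlap, and the Benjamini-Hochberg adjusted p-values were 0.0138 and 0.0311 (edgeR, quasi-likelihood). The libraries held 3175149 to 4317286 counts, so that a count of 0 allows up to 3 counts, or 0.680 to 0.992 CPM (counting error only). siCtrl replicate 2, 1 of the libraries with conflicting labels, stood apart from the other siCtrl libraries, with a chi-square per degree of freedom of 17.4 and 14.1 against them, where they differed from each other by 5.37. A value of similar size, 14.2, was found between siYAP/TAZ replicates 1 and 2. The other siYAP/TAZ pairs had 7.91 and 6.56. All 10 mammary epithelial markers, among them KRT5, KRT14, CDH1 and TP63, were detected well enough to be tested. Their summed level was 3048 to 3144 CPM with siCtrl and 2165 to 2231 CPM in siYAP/TAZ, while 0 of the 10 passed an adjusted p of 0.05. KRT6A held the largest part of the difference in the sum (means of 1185 and 714 CPM), the means of CDH1, KRT8 and TP63 were higher in siYAP/TAZ, and the part of this shift in the KLF values was not tested. The immune marker LYZ and the fibroblast collagens COL1A2 and COL3A1 had 0 counts in all libraries, whereas PDGFRA, on the stromal list, was well expressed. The summed stromal level was 158 to 173 CPM in siCtrl libraries against 158 to 184 in siYAP/TAZ, and the immune level 1.44 to 4.94 against 1.36 to 3.97 CPM. The endothelial level was 2.26 to 4.01 against 5.67 to 12.9 CPM, mostly through PECAM1 (log2 fold change of 2.10, edgeR adjusted p of 0.0785), the only 1 of its 4 genes tested, and its part in the KLF values was not tested. In such bulk RNA, fewer cells expressing a gene and less RNA of it per cell cannot be told apart.

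None of the 7 tested KLF genes changed past the threshold after siYAP/TAZ. The knockdown was partial at the RNA level, with YAP1 at 0.575-fold and WWTR1 at 0.619-fold of siCtrl. By edgeR's quasi-likelihood test, 0 of 7 had an adjusted p under 0.05, where 1.96% of all 12510 genes tested did (152 lower and 93 higher). With the replicate number as a block, 0 of 7 passed and 10.1% of all genes did. DESeq2 also called 0 of 7, and 4.35% of all genes. At an unadjusted p under 0.05, 2 of the 7 genes, KLF4 and KLF13, were higher in siYAP/TAZ, where 8.4% of all genes tested were, and 0 were lower. DESeq2 gave 1 of the 7 at that level in either direction, beside 1865 of 13301 genes. In no tested member did the groups separate in CPM, although they did for 22.1% of all genes. The median log2 fold change over the 7 was 0.18, with 5 above 0, beside a median of -0.001 over all genes tested.

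The order of the levels spanned a wide range. Reads of 3′ libraries come from transcript ends and do not grow with transcript length, so CPM values of different genes were set side by side without a length correction. KLF5 was the most abundant member and took 38.7% to 48.0% of the summed CPM of the 8 genes in every library. It exceeded KLF6, the next, in 6 of 6 libraries, by 2.25-fold to 3.83-fold. KLF6 and KLF7 did not differ beyond their spread, since KLF6 was the higher in 3 of 6 libraries. KLF7 exceeded KLF13 in 5 of 6 libraries and KLF13 exceeded KLF3 in 6 of 6, in the second case by 1.04-fold to 1.24-fold only. KLF10, KLF4 and KLF2 followed in that order in 6 of 6 libraries.

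**Figure D1:**
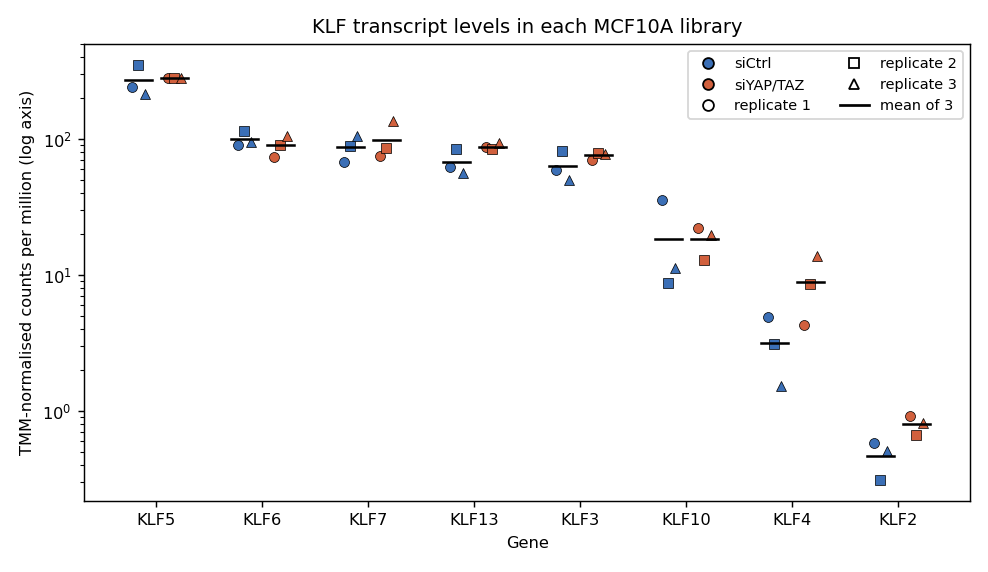
Level of each KLF gene (x axis, in the order of the siCtrl means) in TMM-normalised CPM on a log axis, with siCtrl libraries in blue, siYAP/TAZ libraries in orange, the marker shape giving the replicate number and the bar the mean of 3. KLF5 lay highest, near 282 CPM in all siYAP/TAZ libraries, and KLF2 lowest, under 1 CPM in all 6.

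KLF5, which drives proliferation of basal epithelial cells, did not pass the test and was measured with some precision. Its levels were 243, 352 and 214 CPM in siCtrl replicates 1, 2 and 3 and 283, 282 and 281 CPM in siYAP/TAZ. The siYAP/TAZ libraries were nearly equal and lay between the siCtrl libraries, whose spread came mostly from the high value of replicate 2. The means were 269.6 ± 72.7 and 282 ± 0.911 CPM (SD, n = 3). With 1250, 854 and 1035 counts in siYAP/TAZ, counting error alone exceeds the smaller SD. That SD is therefore no measure of how stable the level was. The log2 fold change was 0.07 (SE of 0.18 and edgeR adjusted p of 0.882), and its 95% interval ran from 0.789-fold to 1.39-fold. Its direction was not fixed by the data, as it turned to -0.076 without siCtrl replicate 3.

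KLF4, an activator of differentiation genes in barrier epithelia and a reprogramming factor, had the largest fold change of the members and few reads. It had 17, 10 and 6 counts in siCtrl and 19, 26 and 51 counts in siYAP/TAZ, which is 4.88, 3.09 and 1.51 CPM against 4.31, 8.59 and 13.9 CPM. Replicates 2 and 3 of siYAP/TAZ lay above all siCtrl libraries, and replicate 1 lay below siCtrl replicate 1. The log2 fold change of 1.49 (SE 0.52) had an unadjusted p of 0.0176 and an adjusted p of 0.182 in edgeR. Its interval, not adjusted for the number of genes, ran from 1.25-fold to 6.34-fold higher. Over the 14 alternatives in which KLF4 was tested, the direction held in all 14, with log2 fold changes of 0.54 to 1.96 and adjusted p-values of 0.103 to 0.910. The ratio of KLF5 to KLF4 within a library, 49.8, 114 and 142 in siCtrl, was 65.8, 32.9 and 20.3 in siYAP/TAZ, and these ranges overlapped.

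KLF2, the KLF of quiescent endothelium and lymphocytes, was near the limit of detection. It had 2, 1 and 2 counts in siCtrl and 4, 2 and 3 counts in siYAP/TAZ, too few for testing. In CPM the groups did not overlap (0.309 to 0.574 against 0.661 to 0.907), which also held for 22.1% of all genes tested. The counts themselves met, as siCtrl replicates 1 and 3 and siYAP/TAZ replicate 2 each had 2. The ratio of the summed counts, 9 against 5, was 1.73 after scaling, with an exact binomial (Clopper-Pearson) 95% interval of 0.522 to 6.58 for counting error. A difference in KLF2 was therefore not detectable at this depth.

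KLF6, a widely expressed factor induced early by injury and growth signals, was the member of lowest fold change. It had 90.5, 114 and 95.2 CPM with siCtrl and 73.9, 90.6 and 105 CPM in siYAP/TAZ, so the ranges overlapped. The log2 fold change was -0.16 (SE of 0.17 and edgeR adjusted p of 0.674), with an interval from 0.695-fold to 1.16-fold. KLF7, best known from neurite outgrowth, had 68.1, 89.2 and 104 CPM with siCtrl and 75.5, 85.3 and 135 CPM in siYAP/TAZ. In both groups replicate 3 was the highest and replicate 1 the lowest library. Its log2 fold change was 0.18 (SE of 0.24 and edgeR adjusted p of 0.745), with an interval from 0.783-fold to 1.64-fold, and without siYAP/TAZ replicate 3 it was -0.12.

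The CtBP-dependent repressor KLF3 and the SIN3A-dependent repressor KLF13 had similar patterns over the libraries. KLF13, which is also known as an activator of the chemokine gene CCL5 in T cells, had 62.3, 84.2 and 56.3 CPM with siCtrl and 86.6, 84.0 and 92.7 CPM in siYAP/TAZ. The groups met at a single pair of libraries, siCtrl replicate 2 and siYAP/TAZ replicate 2. From 67.6 ± 14.7 to 87.8 ± 4.51 CPM (SD, n = 3), the log2 fold change was 0.38 (SE 0.17), with an unadjusted p of 0.0489 and an adjusted p of 0.281 in edgeR. The interval ran from 1.00-fold to 1.69-fold. Without siCtrl replicate 2, KLF13 was the only member called, at a log2 fold change of 0.57 (adjusted p of 0.0250 in edgeR), in a setting where 6.08% of all genes were called higher. It was also called when both libraries of conflicting labels were left out (0.60, adjusted p of 0.0378 in edgeR). In that setting 9.29% of all genes were called in either direction. KLF13 was called by no other alternative. Its direction held in all 15 alternatives.

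KLF3 had 59.5, 81.2 and 49.8 CPM with siCtrl and 70.0, 79.3 and 77.8 CPM in siYAP/TAZ. Here siCtrl replicate 2 was the highest of all 6 libraries, and the other siCtrl libraries were the lowest. The log2 fold change was 0.26 (SE of 0.19 and edgeR adjusted p of 0.509) with an interval from 0.896-fold to 1.59-fold, and without siCtrl replicate 2 it was 0.47 (adjusted p of 0.0657). Over the 6 libraries, Pearson's r of log2 CPM was 0.93 between KLF3 and KLF13, 0.90 between KLF3 and KLF5 and 0.80 between KLF5 and KLF13, whereas the other pairs of members lay between -0.53 and 0.69. These 6 points share the groups and the high values of siCtrl replicate 2 and are given as a description.

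**Figure D2:**
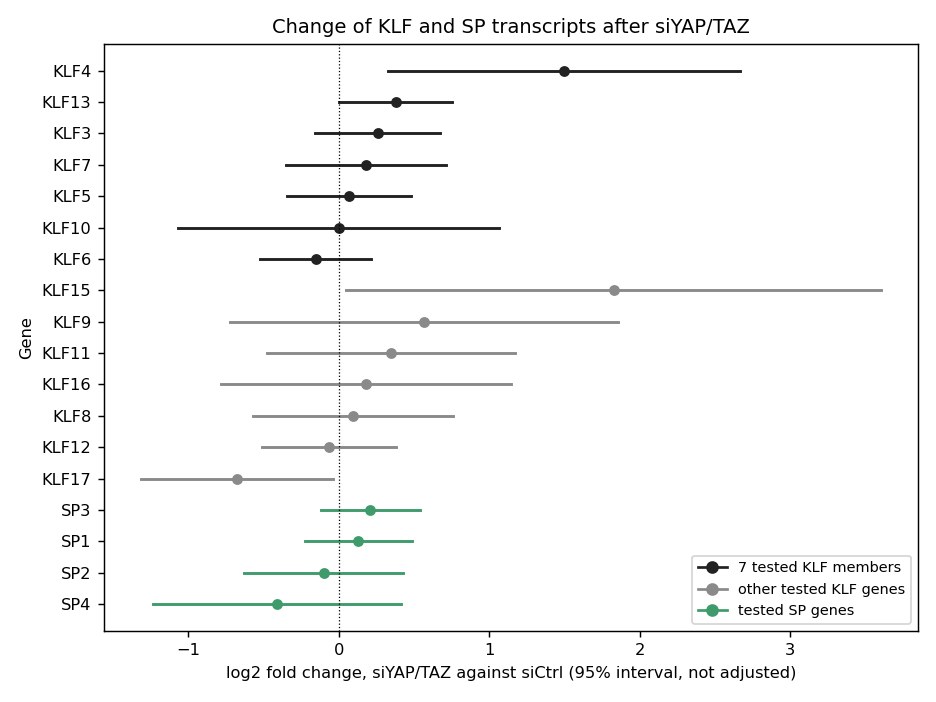
Fitted log2 fold change of siYAP/TAZ against siCtrl (x axis) with its 95% interval, not adjusted for the number of genes, for the 7 tested members (black), the other tested KLF genes (grey) and the tested SP genes (green). KLF5, KLF6 and KLF3 had narrow intervals around small changes, while KLF4, KLF10, KLF9 and KLF15 had wide intervals.

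KLF10, a repressor first described as an early gene of TGF-beta signalling, differed little in its mean and greatly between libraries. It had 123, 28 and 45 counts in siCtrl and 98, 39 and 72 counts in siYAP/TAZ, which is 35.3, 8.64 and 11.3 CPM against 22.2, 12.9 and 19.6 CPM. In both groups replicate 1 was the highest and replicate 2 the lowest. The means of 18.4 ± 14.7 and 18.2 ± 4.81 CPM (SD, n = 3) gave a log2 fold change of -0.002 (SE of 0.48 and edgeR adjusted p of 0.999). In this fit, which has no replicate term, the interval of 0.477-fold to 2.09-fold includes a 2-fold change in either direction. With the replicate block the estimate was tighter, at a log2 fold change of 0.134 (SE of 0.289 and edgeR adjusted p of 0.817). Without siCtrl replicate 1 the log2 fold change was 0.87 (adjusted p of 0.268). The SD of log2 CPM within groups was 0.79 for KLF10, 0.75 for KLF4 and 0.38 for KLF7, and 0.22 to 0.26 for KLF3, KLF5, KLF6 and KLF13, beside a median of 0.25 over all genes tested.

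Whether KLF levels follow the replicate number was tested in the fit with the replicate block. By edgeR, KLF7 had a p of 0.00223 (adjusted 0.0759) and KLF10 a p of 0.00598 (adjusted 0.117) for a difference between replicate numbers, and for the other 5 tested members p ranged from 0.129 to 0.719. At an adjusted p of 0.05, 0 of the 7 passed, and 1.81% of all genes did. For KLF10 the difference of siYAP/TAZ from siCtrl of the same number was -0.66, 0.55 and 0.76 on the log2 CPM scale for replicates 1, 2 and 3. For KLF13 it was 0.47, -0.005 and 0.71, and for KLF4 -0.16, 1.33 and 2.81. No tested member had the same sign in all 3 pairs.

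**Figure D3:**
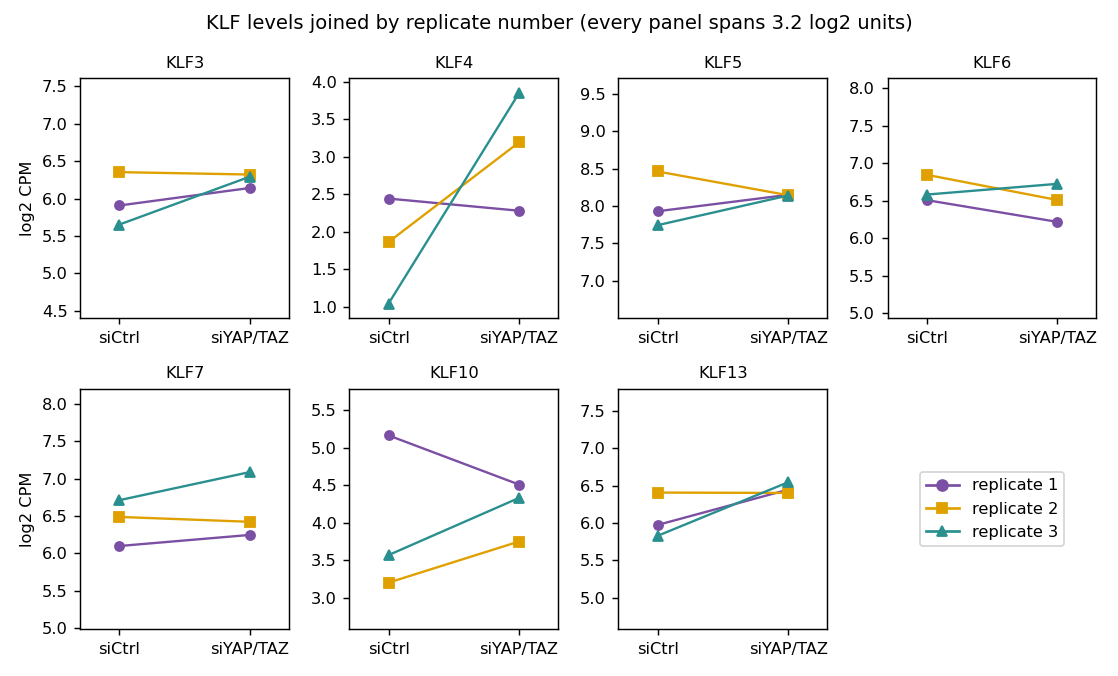
log2 CPM of the 7 tested members in siCtrl and siYAP/TAZ, with lines joining libraries of the same replicate number and every panel covering the same span of the y axis. The lines of KLF7 and KLF10 kept apart by replicate number, those of KLF3, KLF5 and KLF13 met in siYAP/TAZ, and those of KLF4 crossed.

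The level of siCtrl replicate 2 was also set against the other siCtrl libraries, gene by gene. Relative to the mean of siCtrl replicates 1 and 3, the log2 CPM of siCtrl replicate 2 was higher by 0.57 for KLF3, 0.62 for KLF5 and 0.50 for KLF13. The mean of the siYAP/TAZ libraries was higher by 0.47, 0.31 and 0.56 for the same genes. For these members siCtrl replicate 2 therefore lay with or above the siYAP/TAZ libraries, although its YAP1 level of 204 CPM and WWTR1 level of 109 CPM were those of the siCtrl group. For KLF10 it lay 1.17 below the same reference, for KLF4 0.12 above it and for KLF6 0.30 above it (siYAP/TAZ mean at -0.06). The first principal component, the axis of largest variance over all genes tested, held 48.4% of it. On that axis siCtrl replicates 1 and 3 lay at -42.6 and -34.9, and siYAP/TAZ replicates 1, 2 and 3 at 9.77, 33.7 and 26.9. With siCtrl replicate 2 at 7.15, the shift of that library was not particular to the KLF genes. Why this library differed was not tested.

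**Figure D4:**
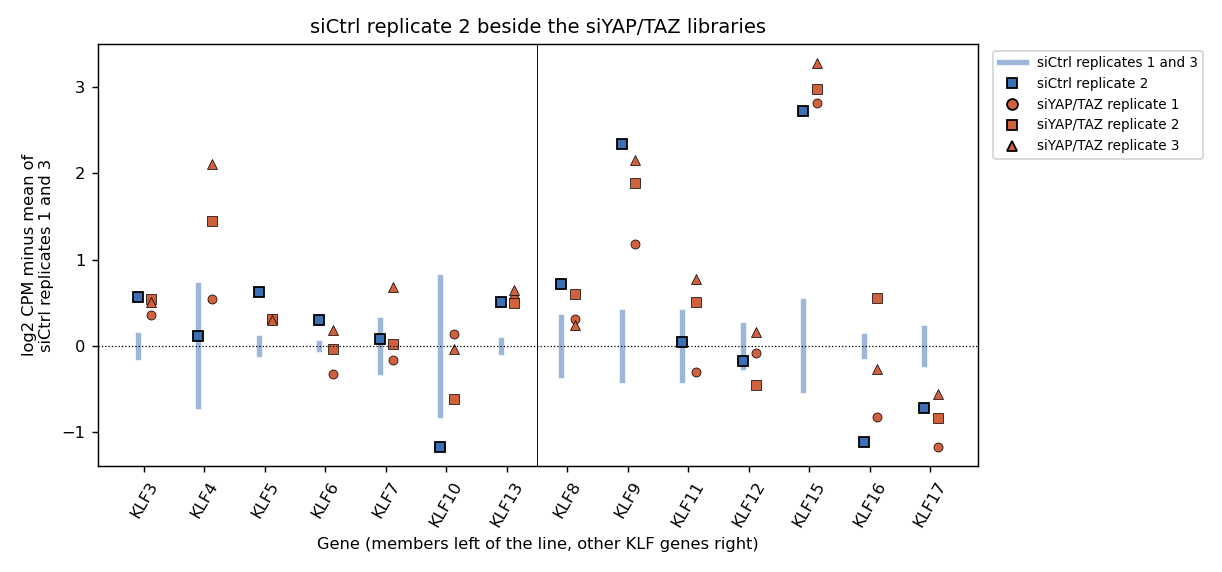
log2 CPM of the tested KLF genes relative to the mean of siCtrl replicates 1 and 3, with the pale bar spanning those 2 libraries, the blue square marking siCtrl replicate 2 and the orange markers the siYAP/TAZ libraries. For KLF3, KLF13, KLF9 and KLF15 the square lay next to the orange markers, and for KLF10 and KLF16 below them.

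Promoter sequences are shown for KLF4 and KLF13, the members of smallest p, and for KLF7, the only member with a GGAATG match, the core that TEAD factors recognise. They were taken from RefSeq (GRCh38.p14), which gave 10 start sites for 6 of the 8 members, as the 250 bases before each start. Matches on either strand are in capitals: GGGCGG, a GC box bound by SP and KLF proteins, in KLF4 (chr9:107489770-107490019, minus strand) and KLF13 (chr15:31326585-31326834, plus strand), and GGAATG and the CArG box, the element of SRF, in 1 of the 4 KLF7 windows (chr2:207167247-207167496, minus strand).
KLF4: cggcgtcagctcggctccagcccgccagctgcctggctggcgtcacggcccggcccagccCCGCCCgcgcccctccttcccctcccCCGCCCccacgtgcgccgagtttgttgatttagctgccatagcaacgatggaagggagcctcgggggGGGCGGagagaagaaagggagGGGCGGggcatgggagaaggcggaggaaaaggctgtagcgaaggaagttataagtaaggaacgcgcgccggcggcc
KLF13: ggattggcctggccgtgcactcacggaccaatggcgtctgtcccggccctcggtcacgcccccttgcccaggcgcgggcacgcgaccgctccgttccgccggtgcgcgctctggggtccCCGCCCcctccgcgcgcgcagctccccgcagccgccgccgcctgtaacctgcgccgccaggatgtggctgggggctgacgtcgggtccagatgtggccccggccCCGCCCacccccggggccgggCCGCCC
KLF7: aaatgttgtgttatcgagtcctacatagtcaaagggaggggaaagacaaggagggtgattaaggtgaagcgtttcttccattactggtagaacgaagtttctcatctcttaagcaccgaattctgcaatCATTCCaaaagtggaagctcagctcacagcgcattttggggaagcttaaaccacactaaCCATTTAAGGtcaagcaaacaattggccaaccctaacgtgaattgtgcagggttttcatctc
The KLF4 window held 4 GGGCGG matches and the KLF13 window 3. All 6 members with a window had GGGCGG in at least 1, and 6 of the 10 windows held it, against 42.6% of all 35116 windows of this length. GGAATG was in 1 of 10 (11.9% of all windows), the AP-1 letters TGANTCA in 0 of 10 (6.57%), CACCC in 5 of 10 (54.7%) and the CArG box in 1 of 10 (1.16%). The KLF7 window that held GGAATG belongs to a gene that did not pass the test here, and a match is a description of letters, not a binding site.

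The other KLF genes were read from the same fit. Of 10 listed, 9 were in the table, 7 were tested and 0 passed in either direction, with a median log2 fold change of 0.18 and 5 above 0. At an unadjusted p under 0.05, KLF15 was higher and KLF17 lower. KLF15, a metabolic regulator induced by glucocorticoids, had 2, 15 and 0 counts in siCtrl and 22, 17 and 26 counts in siYAP/TAZ, so that its groups did not overlap but siCtrl replicate 2 lay close to siYAP/TAZ. Its adjusted p was 0.273 in edgeR and 0.00521 without siCtrl replicate 2. KLF9, likewise a glucocorticoid-induced member, had 11.5, 79.3 and 20.1 CPM with siCtrl and 35.1, 57.8 and 69.9 CPM in siYAP/TAZ. It did not pass in the fit of all libraries (log2 fold change of 0.56 with an SE of 0.57 and an edgeR adjusted p of 0.662), and without siCtrl replicate 2 it was 1.76 with an adjusted p of 0.00660. KLF17 had 21.3, 14.8 and 28.6 CPM with siCtrl and 10.7, 13.6 and 16.6 CPM in siYAP/TAZ. Its log2 fold change was -0.68 (SE of 0.28 and edgeR adjusted p of 0.259), and -0.88 with an adjusted p of 0.0444 without siCtrl replicate 2.

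The SP factors share the zinc finger block and the GC box with the KLFs. Of 9 listed SP genes, 4 were tested, 0 passed, and the median log2 fold change was 0.02. SP3, the most abundant, had 80.4 ± 7.13 CPM with siCtrl and 93.1 ± 12.6 CPM in siYAP/TAZ (SD, n = 3; log2 fold change of 0.21 and edgeR adjusted p of 0.498). SP1 had 35.0 ± 4.02 and 38.3 ± 2.59 CPM (0.13, adjusted p of 0.719), and SP4 11.2 ± 3.32 and 8.64 ± 3.62 CPM (-0.41, adjusted p of 0.610).

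Genes that act with the KLF proteins were read from the same fit. All 13 listed cofactors were tested and 0 passed, with a median of -0.012. The smallest p-values were those of SAP30, a subunit of the SIN3A complex (log2 fold change of -0.70 with an SE of 0.28 and an edgeR adjusted p of 0.236, and 0.0495 with the replicate block), SIN3B (0.44, adjusted p of 0.276) and the deacetylase gene HDAC2 (-0.27, adjusted p of 0.336). Of 11 listed genes for turnover of KLF proteins, 10 were tested and 0 passed, with a median of 0.11. Among them the ubiquitin ligase gene FBXO32 varied widely, with 61.9 ± 75.2 CPM in siCtrl, where replicate 2 held 481 counts and the others 47 and 94, and 207 ± 67.9 CPM in siYAP/TAZ. It had an adjusted p of 0.240 in edgeR, which became 0.0111 with the replicate block and 0.000521 without siCtrl replicate 2. SMURF2 (-0.40, adjusted p of 0.217) and VHL (0.39, adjusted p of 0.265) did not pass. Of 8 listed genes of the MEK5-ERK5-MEF2 route that induces KLF2 and KLF4 in endothelium, 6 were tested and 0 passed. MAP3K2, a kinase upstream of MEK5, had 0.60 (edgeR adjusted p of 0.0761), and it passed with the replicate block (0.0207) and in DESeq2 (0.0449). MEF2A had 0.28 (adjusted p of 0.318) and MAPK7 0.58 (adjusted p of 0.544).

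Genes known to be regulated by KLF proteins included the cyclin gene CCNB1, which fell. Of 28 listed, 23 were tested, 2 were called lower and 0 higher, beside 152 lower and 93 higher among all 12510 genes tested. The list had no common direction, with 13 of the 23 above 0 and a median of 0.03. CCNB1, the mitotic cyclin B1, fell from 94.6 ± 6.92 to 50.9 ± 10.2 CPM (SD, n = 3; log2 fold change of -0.89 with an SE of 0.17 and an edgeR adjusted p of 0.0315). It has many other regulators. CCNB1 did not pass without siCtrl replicate 1 (adjusted p of 0.102), siCtrl replicate 3 (0.140), or replicate 2 (0.108) or 3 (0.172) of siYAP/TAZ. BCL2 had a log2 fold change of -1.58 and an adjusted p of 0.0601 in edgeR, and 0.0136 with the block.

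KLF2, KLF4, KLF6 and KLF10 belong to the immediate-early genes, which respond within minutes to serum and growth factors. Of 20 listed genes of that class, 16 were tested, 1 was called lower and 0 higher, with a median of -0.18. Among all genes tested, 1.96% were called in either direction. The one called was CCN1, a direct YAP/TAZ target, at -2.41 (SE of 0.35 and edgeR adjusted p of 0.0138), and the adjusted p was 0.0803 when siCtrl replicate 3 was left out and 0.0705 when siYAP/TAZ replicate 3 was. FOSL1 had -1.43 (adjusted p of 0.0533, and 0.00335 with the block) and DUSP5 -1.23 (adjusted p of 0.115, and 0.0294 with the block).

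The genes whose log2 CPM followed the members of smallest p most closely were sought among 7709 other genes with a mean of at least 20 CPM. For KLF4 they were ZSCAN25 (Pearson's r of 0.98 over 6 libraries), EEF1D (0.97) and TSPOAP1-AS1 (0.97). For KLF13 they were NINJ1 (r of 0.99), DELE1 (0.99) and the interferon-induced gene GBP2 (0.99). With 6 points and this many genes such values are a description only. Adjusted p-values in edgeR ran from 0.0956 for GBP2 to 0.463 for EEF1D. With the replicate block GBP2 (0.00973) and NINJ1 (0.0435) passed, and GBP2 also passed with no low-count filter (0.0139). Without siCtrl replicate 2, where 12.3% of all genes were called, GBP2 (0.000144), NINJ1 (0.00364) and DELE1 (0.021) passed in edgeR. They also passed without both libraries of conflicting labels, and the genes named for KLF4 passed in neither setting. All of these genes were picked for likeness to a member over the same 6 libraries, so their calls are not independent of that member.

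On GRCh37, the build with the coordinates of hg19, the members lie on 8 chromosomes: KLF5 (Entrez 688) on chromosome 13 from 73629114 to 73651679, KLF13 (Entrez 51621) on chromosome 15 from 31619038 to 31727868, KLF3 (Entrez 51274) on chromosome 4 from 38665818 to 38703138 and KLF4 (Entrez 9314) on chromosome 9 from 110247133 to 110252763. KLF6 (Entrez 1316) lies on chromosome 10 from 3818188 to 3827473, KLF7 (Entrez 8609) on chromosome 2 from 207938861 to 208038580, KLF10 (Entrez 7071) on chromosome 8 from 103661012 to 103667953 and KLF2 (Entrez 10365) on chromosome 19 from 16435637 to 16439496. In the GENCODE annotation of that build, exons of KLF3, KLF4 and KLF7 overlap exons of noncoding genes on the opposite strand. KLF3 overlaps KLF3-AS1 over 265 bases, and that gene had at most 5 counts in a library. Whether the counting used strand is not stated, so reads of these genes and their antisense partners cannot be told apart.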

How the data were processed

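QuantSeq 3′ mRNA-Seq libraries of MCF10A cells (6) were analysed from 1 table of raw counts per Entrez gene that the authors deposited without normalisation. Per the labels, reads were processed with cutadapt 4.2 and Bowtie2 2.3.5.1 on hg19, and annotation and strand use in counting are not given in the sources used here. Symbols came from RefSeq and matched 23308 of 23459 IDs (99.7% of counts).

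Groups and replicate numbers came from the description label. Genes passing edgeR's default low-count filter (12510) were tested with edgeR 4.0.16 (R 4.3.3) by the quasi-likelihood test, with TMM scaling, no term besides the group, and p-values adjusted by Benjamini-Hochberg. Intervals are the log2 fold change plus or minus the t quantile times its SE. CPM values are TMM-normalised. The script was tested on simulated data. Alternatives were DESeq2 1.42.0, other scalings, filters and dispersions, a replicate block, groups by title and leaving out libraries. Same-numbered libraries deviated together from their group means across genes (r of 0.42, 0.35 and 0.13, the last being weak). Libraries of different numbers were not compared in this way. Pairing by number was therefore left out of the main fit and used as an alternative, the replicate block. Pairing rests on the description label. Values of single genes are from the fit without the block unless another setting is named. With the block, the SE went from 0.237 to 0.128 for KLF7, from 0.475 to 0.289 for KLF10 and from 0.521 to 0.516 for KLF4. The lowest adjusted p of a member was then 0.108 (KLF4, edgeR).

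The members and gene lists were chosen with earlier results of these data known. All 8 members are named. From each list the genes called (or of smallest p, up to 3) are named, as are the 3 genes most correlated with the 2 members of smallest p. Of the genes so chosen, 1 is not reported here. The test for replicate numbers and the KLF2 ratio were added after values were seen. No replicate pair agreed within sampling noise (chi-square per degree of freedom of 5.37 to 17.4).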

Additional observations from a re-analysis of the deposited data

How the results depend on the processing

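The number of KLF members called was 0 with all libraries and in every alternative except 2: it was 1, KLF13, when both libraries of conflicting labels were left out, and it ranged from 0 to 1 with 1 library left out (1 without siCtrl replicate 2). With the replicate block no member changed its call. The count over all genes was 245, and it was 578 with DESeq2, 556 with no low-count filter, 1263 with the replicate block, 1183 without both libraries of conflicting labels, 0 with groups by title (464 at an unadjusted p under 0.05) and 16 to 1579 with 1 library left out. The count over the listed pathway genes was 3, and in the same order it was 7, 5, 15, 14, 0 and 0 to 18. With 1 library left out, the log2 fold change ranged from -0.076 to 0.308 for KLF5 (also -0.001, lacking siCtrl replicate 1), from -0.116 to 0.342 for KLF7 and from -0.322 to 0.872 for KLF10 (0.187 lacking siYAP/TAZ replicate 2). With groups by title the sign turned for KLF6 (0.086), SIN3B (-0.062) and VHL (-0.053). KLF10 also turned with a mean of at least 50 counts (0.015) and with the replicate block (0.134). The causes were not tested. Depth limits KLF2, which had 1 to 4 counts a library. KLF4 was not tested at a mean of at least 50 counts, since its counts are lower.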
